A study of Mus musculus with 8 samples.

Results

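Glycogen metabolism in neonatal cardiomyocytes (NCMs) was described through 9 genes, namely Ugp2, Gyg, Gys1, Gbe1, Pygm, Pygb, Pygl, Phka1 and Ppp1r3c. They were taken by symbol from a table of 27179 Entrez genes, and all 9 were present and passed the filter on low counts that 14966 genes passed. RNA-seq was performed on NCMs of 8 male C57Bl/6J neonates collected at postnatal day 0, each library holding the cells of 1 heart. From the finding of a vaginal plug until late gestation the dams were assigned to filtered air (FA) or to diesel exhaust (DE). Per the methods, the exhaust was not continuous but given for part of the day, Monday to Friday, at a regulated level of fine particles. FA gave replicates 2, 3, 4 and 6 and DE gave replicates 1, 3, 5 and 7, which made 4 libraries per group. The dam of each heart is not given in the sources used here. Hearts of a group may share a litter, and p-values measure only the spread between these hearts. The NCMs were a suspension left after fibroblasts had attached to a plate, so other cells of the heart could be carried along.

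Glycogen is the branched glucose polymer that muscle stores, and the fetal and newborn heart is known for holding a large store of it. Glucose is activated to UDP-glucose, a primer protein starts the chain, glycogen synthase lengthens it and branching enzyme adds branch points. Phosphorylase releases glucose 1-phosphate from the chain ends once phosphorylase kinase has phosphorylated it. Protein phosphatase 1, brought to the glycogen particle by targeting subunits, works against that kinase by dephosphorylating both synthase and phosphorylase.

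None of the 9 genes was called between DE and FA by the quasi-likelihood (QL) test of edgeR. A call needed a Benjamini-Hochberg adjusted p, taken over all tested genes, that did not exceed 0.05, and a difference of at least 25%. Of all tested genes 868 (5.8%) were called, 3.58% as higher and 2.22% as lower in DE. At an unadjusted p under 0.05 there were 3 of the 9, Pygl, Phka1 and Gys1, against 25.6% of all tested genes. DESeq2 and edgeR's likelihood ratio test each called 1 of the 9, Pygl, and limma-voom called 0. Over all genes DESeq2 called 1620 of the 27179 entered, the likelihood ratio test 1603 of 14966 and limma-voom 860 of 14966. FA and DE had no overlap in CPM, the counts of a gene relative to the TMM-scaled total of its library, for 2 of the 9, Pygl above and Pygb below FA. Among all tested genes this held for 14.7%, with DE above FA in 7.43% and below in 7.26%. The median log2 fold change was -0.049 over the 9 genes and 0.0037 over all tested genes. Pygl, the liver isoform of glycogen phosphorylase, came nearest to a call. Ppp1r3c, a targeting subunit of protein phosphatase 1, split the DE libraries into a high and a low pair, and Stbd1, a glycogen-binding protein listed as a further gene of the pathway, was higher in every DE library.

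The start sites of these last 3 genes are shown because their values carry the differences described below. Each line is 300 bases, 250 before to 50 after an annotated start, from RefSeq on GRCm38.p6 (the assembly also called mm10), 5′ to 3′ on the strand of the gene. The windows are chr19:36736555-36736854 on the minus strand for Ppp1r3c, chr12:70227634-70227933 on the minus strand for Pygl and chr5:92602801-92603100 on the plus strand for Stbd1. Capitals mark ACGTG, the core of the hypoxia response element, or the E-box CACGTG, found on either strand.
Ppp1r3c: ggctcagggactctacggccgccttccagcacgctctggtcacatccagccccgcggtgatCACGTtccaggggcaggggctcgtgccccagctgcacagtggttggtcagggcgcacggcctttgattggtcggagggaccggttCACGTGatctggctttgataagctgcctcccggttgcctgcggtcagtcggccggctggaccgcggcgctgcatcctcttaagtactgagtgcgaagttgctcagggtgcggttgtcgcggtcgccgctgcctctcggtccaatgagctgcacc
Pygl: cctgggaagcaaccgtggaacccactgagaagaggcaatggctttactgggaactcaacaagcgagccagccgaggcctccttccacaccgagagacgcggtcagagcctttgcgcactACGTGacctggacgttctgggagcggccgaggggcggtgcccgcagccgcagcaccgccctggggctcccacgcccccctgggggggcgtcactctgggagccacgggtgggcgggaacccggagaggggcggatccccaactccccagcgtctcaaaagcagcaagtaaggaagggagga
Stbd1: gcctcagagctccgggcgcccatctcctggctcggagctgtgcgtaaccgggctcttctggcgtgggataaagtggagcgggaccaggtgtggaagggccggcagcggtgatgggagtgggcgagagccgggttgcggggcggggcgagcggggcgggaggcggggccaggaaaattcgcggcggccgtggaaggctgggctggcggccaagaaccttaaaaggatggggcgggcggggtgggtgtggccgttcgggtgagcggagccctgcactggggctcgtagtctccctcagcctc
An E-box holds the hypoxia core on both strands and was counted under both names. The 9 genes had 10 windows, Ugp2 having 2. The core was in 6 of the 10, 1 each of Ugp2, Gyg, Pygm, Pygb, Pygl and Ppp1r3c, and in 19.6% of the 32851 promoter windows of this length. The E-box was in the windows of Gyg and Ppp1r3c, and in 7.15% of all windows. The cyclic AMP response element, the estrogen-related receptor element, the glucocorticoid response element and the MEF2 site, searched by their consensus on both strands, had no match in the windows of the 9 genes or of Stbd1. A match describes letters and is not a measured binding site.

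For comparison between genes, levels were given as CPM per kb of exon. In the 4 FA libraries the order of these levels was Gyg at 266.4 ± 35.6 CPM per kb (SD, n = 4), Pygm at 172.7 ± 16.1, Pygb at 161.2 ± 2.90, Ugp2 at 107.2 ± 2.47, Gys1 at 45.0 ± 4.89, Gbe1 at 24.1 ± 0.57, Pygl at 17.3 ± 1.10, Ppp1r3c at 10.6 ± 0.54 and Phka1 at 8.36 ± 0.62. Of the neighbours in this order, only Pygm and Pygb overlapped across the FA libraries, between 154.5 and 189.3 and between 157.0 and 163.5 CPM per kb. In DE the neighbours that overlapped were Pygm with Pygb, Pygl (19.9 to 23.96 CPM per kb) with Gbe1 (16.95 to 23.3), Gbe1 with Ppp1r3c (7.59 to 17.4), and Ppp1r3c with Phka1 (5.72 to 8.06). Pygl stood above Gbe1 on average in DE, at 22.2 ± 1.68 against 20.5 ± 3.095 CPM per kb (SD, n = 4 each). Gys2, the liver synthase, had 45 counts in all over the 8 libraries and was too low to test.

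**Figure D1:**
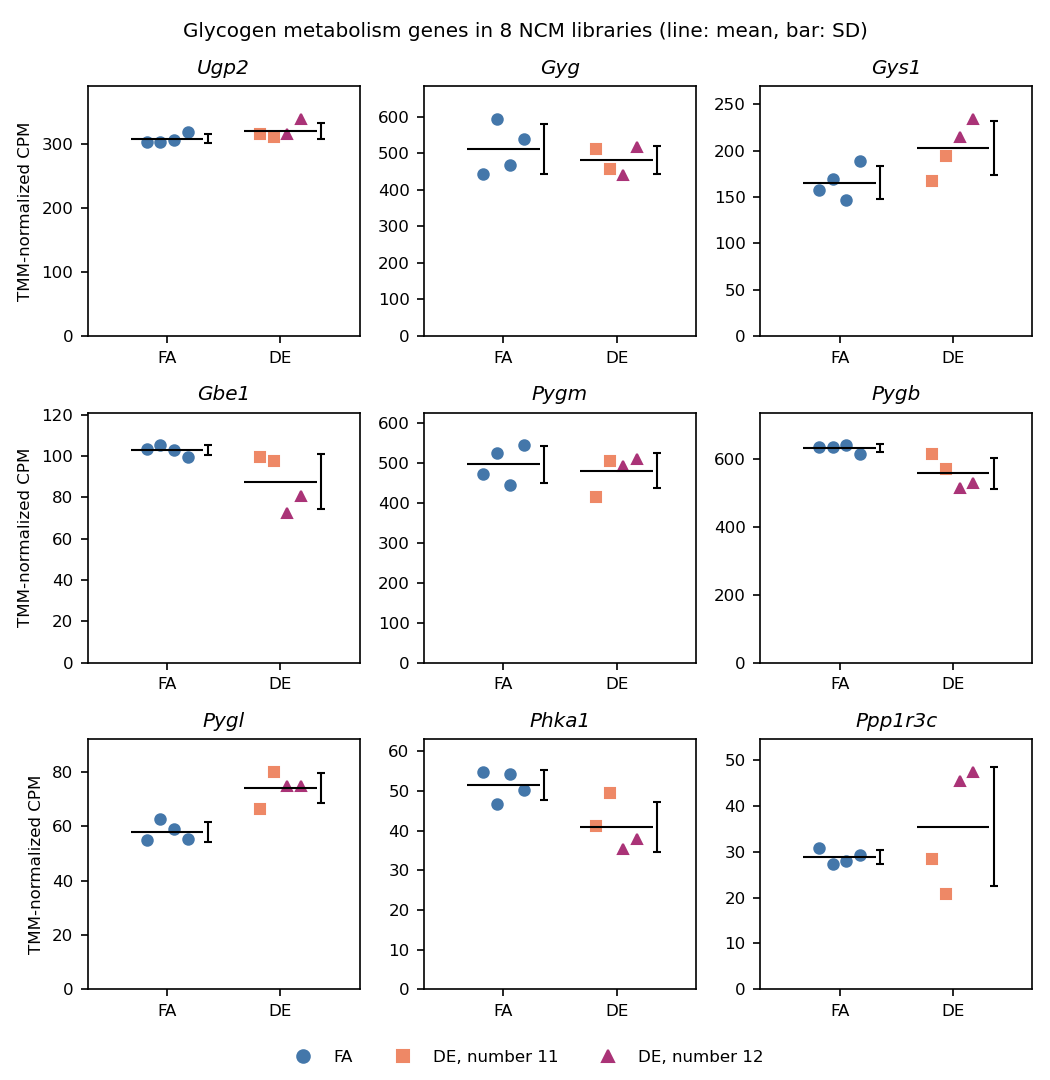
Level of each of the 9 genes (TMM-normalized CPM, axis from 0) in the 4 FA and 4 DE libraries, with a point per library, a line at the group mean and a bar of 1 SD. Pygl is higher in each DE library than in any FA library, and Ppp1r3c reaches 45.3 and 47.4 CPM in the 2 DE libraries whose sample names carry the number 12.

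Among the genes of synthesis, Ugp2 (chromosome 11 of GRCm38.p6, 21321126 to 21371267) makes UDP-glucose, the substrate of the synthase. Its level was 303.7, 303.4, 305.8 and 318.3 CPM in FA replicates 2, 3, 4 and 6 and 315.5, 315.8, 339.5 and 311.5 CPM in DE replicates 1, 3, 5 and 7. The groups overlapped, and the log2 fold change was 0.059 (SE 0.083, 95% interval -0.12 to 0.24, edgeR QL adjusted p = 0.686). Gyg (chromosome 3, 20122083 to 20155117) encodes glycogenin, the self-glucosylating primer. It lay at 444.8, 595.1, 468.6 and 539.8 CPM in FA replicates 2, 3, 4 and 6 and at 511.4, 439.4, 518.5 and 458.0 CPM in DE replicates 1, 3, 5 and 7. All 4 DE values were below the highest FA library and the groups overlapped, with a log2 difference of -0.088 (95% interval -0.34 to 0.16, edgeR QL adjusted p = 0.657).

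Gys1 (chromosome 7, 45434839 to 45456617) is the synthase that lengthens the chain. Its values were 157.8, 169.9, 146.4 and 188.5 CPM in FA replicates 2, 3, 4 and 6 and 167.0, 214.9, 234.6 and 194.1 CPM in DE replicates 1, 3, 5 and 7. In DE, 3 libraries were above the FA range and replicate 1 was inside it. FA averaged 165.7 ± 18 and DE 202.6 ± 29.0 CPM (SD, n = 4 each), a log2 difference of 0.29 (SE 0.12, 95% interval 0.020 to 0.56, edgeR QL adjusted p = 0.168). It was 0.12 (adjusted p = 0.672) between FA and the 2 DE libraries whose sample names, like those of FA, carry the number 11, fitted with that number as a term. In the annotation Gys1 shares 310 of its 3678 exon bases with Ruvbl2 on the other strand, and although the library kit kept strand, the strand setting of the counting is not given in the sources used here, so some counts could belong to either gene. Ugp2 shares 78 of 2870 exon bases with the antisense gene Gm12043, with the same limit.

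Gbe1 (chromosome 16, 70313949 to 70569720) is the branching enzyme. Its level was 103.5, 105.3, 103.1 and 99.5 CPM in FA replicates 2, 3, 4 and 6 and 99.5, 72.4, 80.8 and 97.9 CPM in DE replicates 1, 3, 5 and 7. DE replicates 3 and 5 were the lowest of the 8 libraries, while DE replicates 1 and 7 were at or just below the FA range. The log2 fold change was -0.23 (95% interval -0.48 to 0.016, edgeR QL adjusted p = 0.223). With the number in the sample name as a term it was -0.060 (adjusted p = 0.819). The 4 synthesis genes therefore held 2 with a higher and 2 with a lower mean log2 level in DE, and 0 of them passed the test.

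Breakdown is carried by 3 phosphorylase isoforms, named for muscle (Pygm), brain (Pygb) and liver (Pygl). Pygm (chromosome 19, 6384408 to 6398464) was at 472.5, 525.0, 444.1 and 544.1 CPM in FA replicates 2, 3, 4 and 6 and at 415.0, 491.4, 508.6 and 504.6 CPM in DE replicates 1, 3, 5 and 7. These ranges overlapped, with a log2 difference of -0.049 (95% interval -0.28 to 0.18, edgeR QL adjusted p = 0.800) that turned to 0.022 under scaling by library totals alone. Pygb (chromosome 2, 150786796 to 150831748) was at 634.0, 633.8, 639.2 and 613.5 CPM in FA replicates 2, 3, 4 and 6 and at 612.7, 513.8, 528.3 and 570.6 CPM in DE replicates 1, 3, 5 and 7. All 4 DE libraries were below the FA range, the highest of them by under 1 CPM, and the log2 fold change of -0.18 (95% interval -0.38 to 0.019) did not pass the test (edgeR QL adjusted p = 0.236). With the number in the sample name as a term Pygb was at -0.091 (adjusted p = 0.710).

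Pygl (chromosome 12, 70190815 to 70227683) was at 55.0, 62.8, 58.9 and 55.2 CPM in FA replicates 2, 3, 4 and 6. In DE replicates 1, 3, 5 and 7 it was at 66.5, 74.7, 74.95 and 80.1 CPM. Each DE library was above each FA library. FA averaged 58.0 ± 3.67 and DE 74.1 ± 5.61 CPM (SD, n = 4 each), 1.28-fold, with a log2 difference of 0.35 (SE 0.094, 95% interval 0.15 to 0.56) and an edgeR QL adjusted p of 0.0511, just outside the threshold. Over the 19 alternatives the log2 fold change lay between 0.31 and 0.42 and the adjusted p between 0.011 and 0.202, and 7 of them called the gene, including DESeq2 (0.011) and the fit without DE replicate 1 (0.039). Between the 2 DE libraries with the number 11 in their sample name and FA, all with that number, the log2 difference was 0.34 (edgeR QL with the number as a term, adjusted p = 0.139), a contrast that called 2.99% of all tested genes.

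As shares of the summed CPM per kb of the 3 isoforms, Pygm and Pygb held most and Pygl a small part in each library. Pygl held 4.80%, 5.17%, 5.25% and 4.55% in FA replicates 2, 3, 4 and 6 and 6.20%, 6.88%, 6.70% and 6.94% in DE replicates 1, 3, 5 and 7. Pygm held 49.1% ± 2.68 in FA and 50.3% ± 3.69 in DE, and Pygb 46.0% ± 2.48 and 43.0% ± 3.98 (SD, n = 4 each). The Pygl share was higher in each DE library than in any FA library, whereas the other isoforms overlapped between groups. The shares combine genes of the set and are given as a description with no test.

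**Figure D2:**
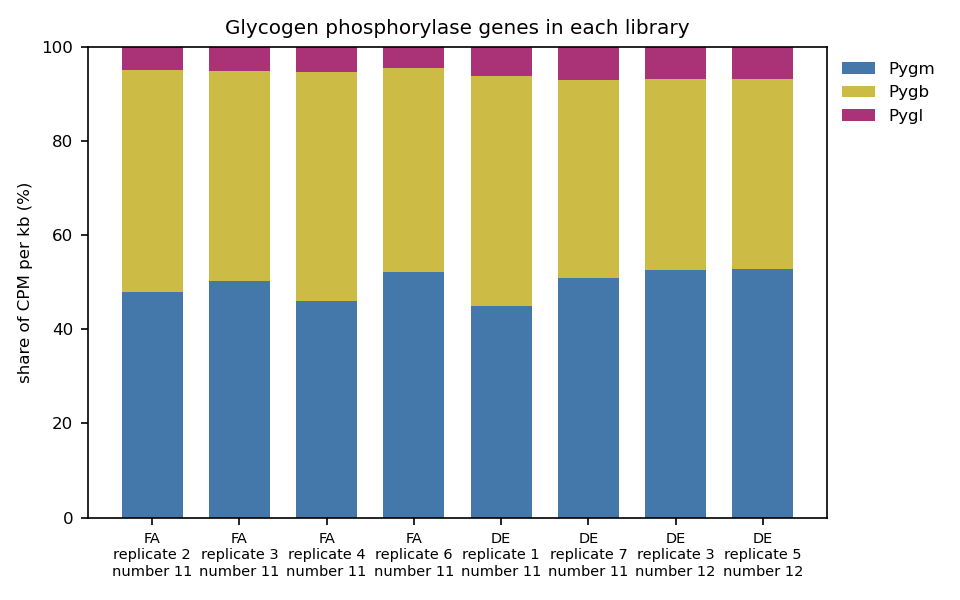
Share of CPM per kb (%) held by Pygm, Pygb and Pygl in each of the 8 libraries, stacked to 100%. The Pygl part runs from 4.55% to 5.25% in the FA libraries and from 6.20% to 6.94% in the DE libraries.

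The summed fibroblast and cardiomyocyte markers differed between groups, and in bulk RNA fewer cells of a type and less RNA per cell cannot be told apart. The 6 fibroblast markers summed to between 1714 and 3019 CPM in FA and between 3211 and 5220 CPM in DE, with Col1a1 and Dcn called higher and the other 4 not called. The 6 cardiomyocyte markers summed to between 40370 and 42680 CPM in FA and between 28870 and 32970 CPM in DE, with Myh6 and Pln called lower and the other 4 not called. Without Myh6, the most abundant of them, the other 5 overlapped, between 17250 and 19700 CPM in FA and between 14720 and 17540 CPM in DE. Their part in the Pygl difference was not tested. The 6 endothelial markers (846.5 to 1119 CPM in FA, 870.1 to 1313 in DE), the 6 smooth muscle and pericyte markers (156.2 to 227.7 and 164.4 to 261.9), the 6 leukocyte markers (11.8 to 17.9 and 14.6 to 25.3) and the 5 erythroid markers found (287.8 to 716.5 and 445.3 to 748.1) overlapped between groups, with Slc4a1 of the last list called higher. The hepatocyte list, of the cell for which Pygl is named, summed to between 1.30 and 2.21 CPM in FA and between 1.71 and 3.29 in DE, with 3 counts of Alb over all 8 libraries. Skeletal muscle markers summed to at most 6.42 CPM with Myod1 at 0, and neuron and glia markers to at most 7.13 CPM.

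Phka1 (chromosome X, 102513975 to 102644301), the muscle isoform of the large regulatory subunit of phosphorylase kinase, was at 54.8, 46.6, 54.2 and 50.2 CPM in FA replicates 2, 3, 4 and 6. It was at 41.2, 35.2, 37.8 and 49.6 CPM in DE replicates 1, 3, 5 and 7. In DE, 3 libraries were below the FA range, and replicate 7 was inside it. FA averaged 51.5 ± 3.84 and DE 40.9 ± 6.24 CPM (SD, n = 4 each), a log2 difference of -0.33 (SE 0.12, 95% interval -0.59 to -0.074, edgeR QL adjusted p = 0.112). Without DE replicate 7 it was -0.44 and was called (adjusted p = 0.0462 in the same test). Between DE with the number 11 and FA, in the fit with the number as a term, it was -0.18 (adjusted p = 0.462).

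Ppp1r3c (chromosome 19, 36731731 to 36736604), also called protein targeting to glycogen, binds protein phosphatase 1 and glycogen. It was at 30.7, 27.3, 28.1 and 29.3 CPM in FA replicates 2, 3, 4 and 6. In DE replicates 1 and 7 it was at 28.4 and 20.7 CPM, and in DE replicates 3 and 5 at 45.3 and 47.4 CPM. Both of the latter were above every FA library, and the former pair was inside or below the FA range. FA averaged 28.8 ± 1.48 and DE 35.4 ± 13.0 CPM (SD, n = 4 each), a log2 difference of 0.30 (SE 0.22, 95% interval -0.18 to 0.78, edgeR QL adjusted p = 0.407).

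The 2 high DE libraries are those whose sample names carry the number 12. The other 6 libraries carry 11, and what the number stands for is not given in the sources used here. In a fit with the number as a term, Ppp1r3c was 0.91 higher on the log2 scale (SE 0.15, 95% interval 0.58 to 1.24) in DE with the number 12 than in DE with the number 11, 2 libraries each (edgeR QL adjusted p = 0.0339). By this contrast 309 genes (2.06%) were called among all those tested, and Ppp1r3c was the only one of the 9. Between DE with the number 11 and FA its log2 difference had the opposite sign, -0.23 (adjusted p = 0.409 in the same test). No FA library carries the number 12, so the number and the exposure cannot be told apart for these 2 libraries. Gbe1 (-0.37, adjusted p = 0.102), Gys1 (0.32, adjusted p = 0.217) and Phka1 (-0.31, adjusted p = 0.200) were not called between the 2 kinds of DE library in the edgeR QL test.

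The median of 3011 genes with transcripts over 5000 bases, less that of 1921 genes with transcripts under 1500 bases, on a log2 scale centred for each gene, was 0.50, -0.22, 0.41 and -0.067 in FA replicates 2, 3, 4 and 6. It was 0.12, -0.36, -0.50 and 0.13 in DE replicates 1, 3, 5 and 7, lowest in the 2 libraries with the number 12. With offsets that remove this trend, chosen after the data were seen, the log2 difference of Ppp1r3c between the 2 kinds of DE library was 0.87 (edgeR QL adjusted p = 0.00943) and that of Phka1, the gene with the longest exon union of the 9 at 6154 bases, was -0.0081 (adjusted p = 0.981). Between DE and FA, Phka1 was at -0.22 with these offsets (adjusted p = 0.123), and also at -0.22 with the number as a term besides (adjusted p = 0.257).

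**Figure D3:**
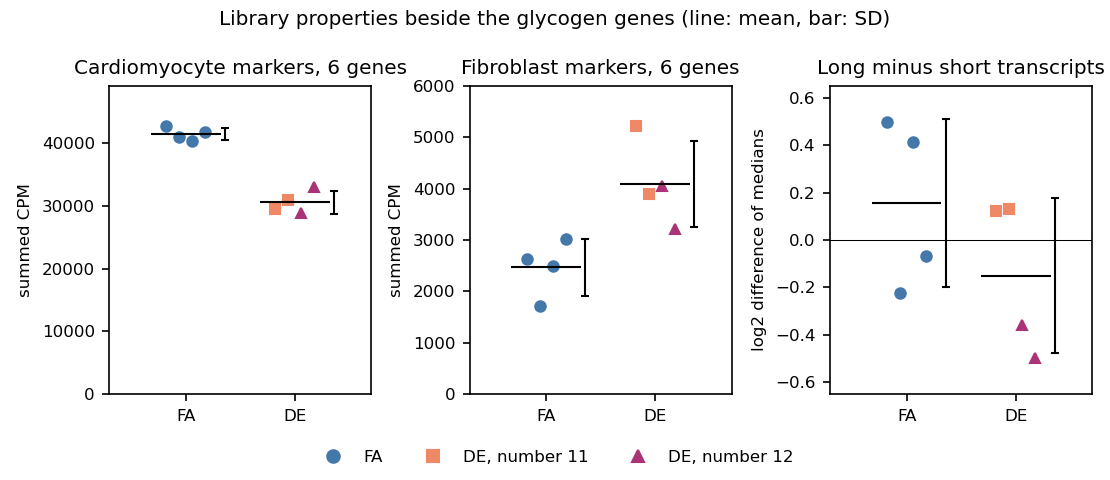
Summed CPM of the 6 cardiomyocyte markers and of the 6 fibroblast markers, and the log2 difference between medians of long and short transcripts, with a point per library, the group mean and a bar of 1 SD. The marker sums do not overlap between FA and DE, which for the cardiomyocyte markers rests on Myh6, and the 2 DE libraries with the number 12 have the lowest long-minus-short values, -0.36 and -0.50.

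A wider list of 24 genes of the pathway was examined beside these, 23 of them high enough to test. Of the 23, 1 was called (5.8% among all genes tested), 11 were higher and 12 lower by their mean log2 level, and the median log2 fold change was -0.034. The called gene was Stbd1 (chromosome 5, 92603051 to 92606579), a starch-binding domain protein that anchors glycogen to membranes. It was at 85.5, 101.0, 92.1 and 92.8 CPM in FA replicates 2, 3, 4 and 6 and at 153.4, 139.2, 145.9 and 154.3 CPM in DE replicates 1, 3, 5 and 7. Each DE library was above each FA library. The mean rose from 92.8 ± 6.35 to 148.2 ± 7.10 CPM (SD, n = 4 each), 1.597-fold, a log2 difference of 0.68 (SE 0.091, edgeR QL adjusted p = 0.00292). It was called under all 19 alternatives, with log2 fold changes between 0.59 and 0.75 and adjusted p-values up to 0.0174, and it did not differ beyond the threshold between the 2 kinds of DE library (-0.11, adjusted p = 0.601). Of the marker sums given above, that of the fibroblast list was also higher in DE and that of the cardiomyocyte list lower, and their part in the Stbd1 difference was not tested.

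In the supply of glucose phosphates, 0 of 4 tested genes were called. Pgm1, the phosphoglucomutase on chromosome 4 that interconverts glucose 1-phosphate and glucose 6-phosphate, was at 178.4, 199.3, 184.7 and 215.4 CPM in FA replicates 2, 3, 4 and 6 and at 203.1, 255.1, 264.3 and 255.1 CPM in DE replicates 1, 3, 5 and 7. DE replicate 1 was inside the FA range and the others were above it, with a log2 difference of 0.33 (95% interval 0.089 to 0.57, edgeR QL adjusted p = 0.0962). In breakdown and its kinase, 0 of 5 were called, and Gaa, the acid glucosidase that degrades glycogen in lysosomes and the gene with the highest level there, averaged 102.6 ± 7.88 CPM under FA and 104.6 ± 7.81 under DE (SD, n = 4 each, log2 difference 0.029, 95% interval -0.18 to 0.24, and -0.035 with the number as a term).

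In the protein phosphatase 1 group, 0 of 9 were called, and the catalytic subunit gene Ppp1cb, the most abundant by CPM, had a log2 difference of -0.23 (95% interval -0.54 to 0.085, edgeR QL adjusted p = 0.337). With the number as a term it was 0.00068, the mean being 588.2 CPM in DE with the number 11 and 416.6 CPM in DE with the number 12. Of the 5 regulators and glycogen-binding proteins only Stbd1 was called. Gsk3b, a kinase that phosphorylates and inhibits glycogen synthase, had a log2 difference of -0.13 (95% interval -0.47 to 0.21) and averaged 152.5 ± 25.7 CPM under FA and 139.5 ± 27.0 under DE (SD, n = 4 each). The sign of Gsk3b turned with the number as a term (0.056) and with length offsets (0.052).

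**Figure D4:**
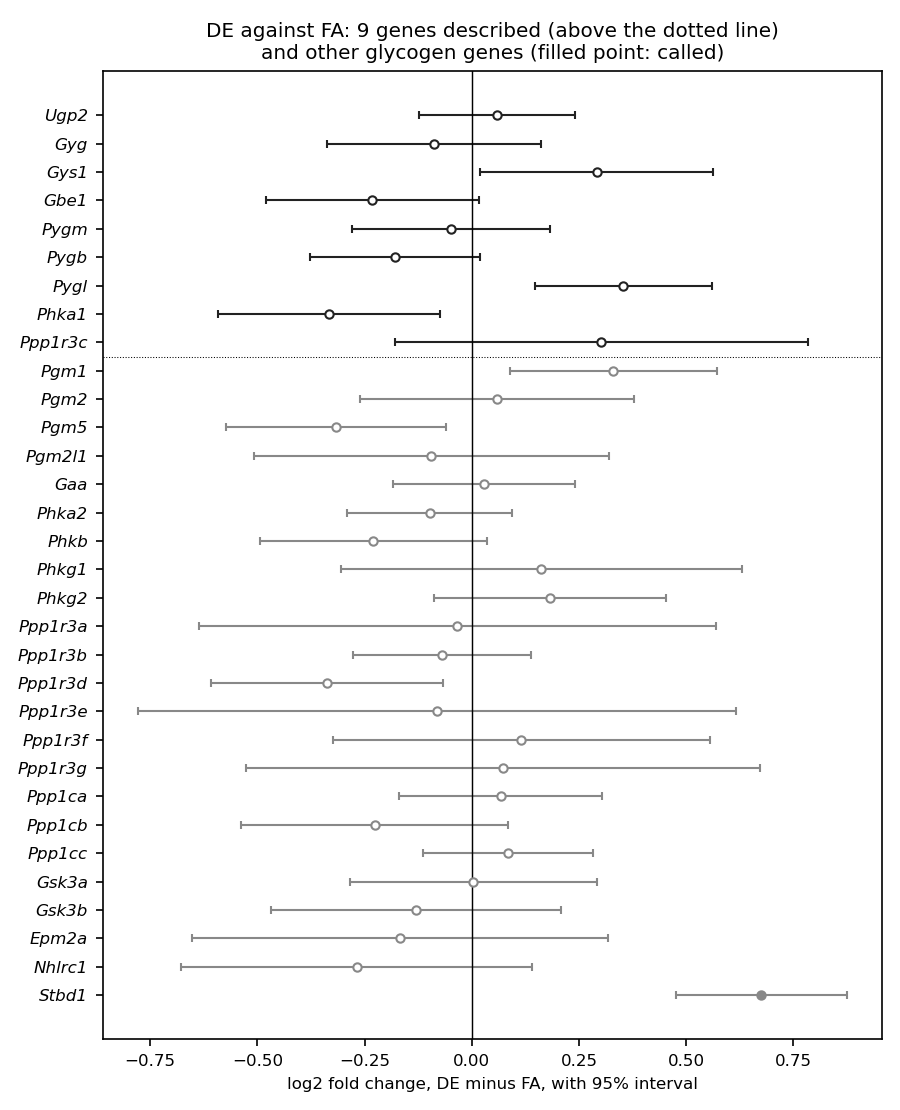
Log2 fold change, DE minus FA, with its 95% interval for the 9 genes (above the dotted line) and the 23 further genes tested (below it), where a filled point marks a called gene. Stbd1 at 0.68 is the only filled point. The interval of Pygl, 0.15 to 0.56, lies to the right of 0, as do those of Stbd1, Gys1 and Pgm1. Those of Phka1 and Ppp1r3d, among others, lie to the left of 0. The intervals are not adjusted for the number of genes tested.

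The targeting subunits of protein phosphatase 1 were set beside Ppp1r3c per length. Ppp1r3a, the striated muscle subunit, chosen for mention after its values were seen, was at 127.5, 68.9, 118.1 and 95.1 CPM in FA replicates 2, 3, 4 and 6, and at 113.5, 68.6, 63.7 and 155.3 CPM in DE replicates 1, 3, 5 and 7. The 2 libraries with the number 12 were the lowest of the 8, and FA replicate 3 lay less than 1 CPM above the higher of them. The log2 difference between the 2 kinds of DE library was -1.02 (edgeR QL adjusted p = 0.0534), and -0.67 with the length offsets (adjusted p = 0.0558), so it did not pass. Per kb of exon, Ppp1r3a ran from 9.89 to 18.3 CPM in FA and from 9.15 to 22.3 in DE, against 10.0 to 11.3 and 7.59 to 17.4 for Ppp1r3c. Ppp1r3b, the subunit known from liver, ran from 8.43 to 9.48 and from 7.89 to 9.38 CPM per kb, a narrower range in DE than either. Ppp1r3e, Ppp1r3f and Ppp1r3g were all under 1 CPM per kb in every library.

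**Figure D5:**
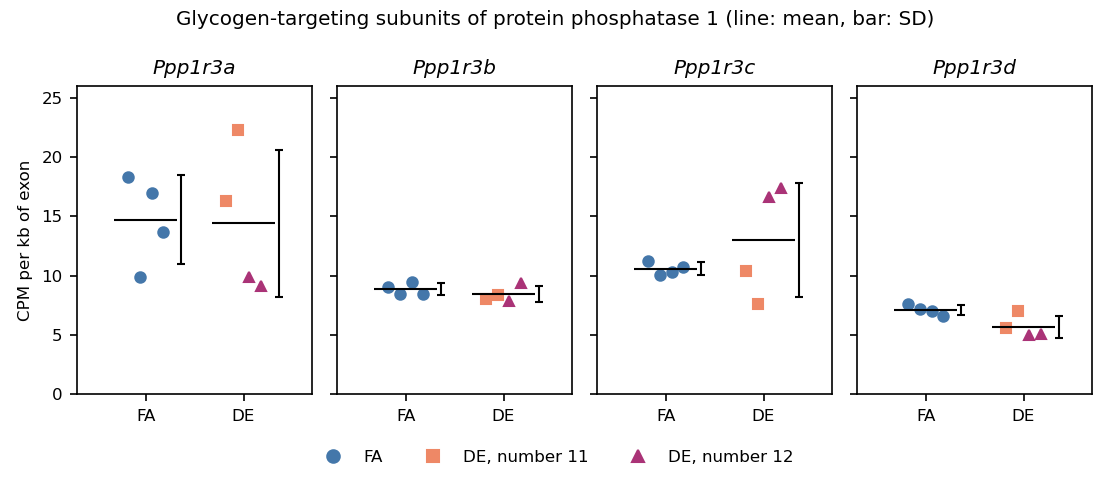
CPM per kb of exon of Ppp1r3a, Ppp1r3b, Ppp1r3c and Ppp1r3d in the 8 libraries on a shared axis from 0, with a point per library, the group mean and a bar of 1 SD. In the 2 DE libraries with the number 12, Ppp1r3c is at up to 17.4 CPM per kb and Ppp1r3a is at its lowest, down to 9.15.

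The profile most like that of Pygl, the gene with the smallest p among the 9, was sought by the root mean square difference of log2 CPM over the 8 libraries after centring each gene on its mean. The 5 nearest genes were Sfxn1 (0.0582), Igf2 (0.0598), Mccc2 (0.0605), Gm826 (0.0611) and Cenpb (0.0629). They were picked for this likeness, so that their DE libraries also lay above their FA libraries follows from the choice and is no further result. Igf2, the fetal insulin-like growth factor, averaged 2149 ± 90.3 CPM under FA and 2818 ± 199.8 under DE (SD, n = 4 each).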

How the data were processed

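RNA-seq covered 8 NCM libraries, 4 FA and 4 DE, grouped by title. Per the methods, the authors mapped reads to mm10 and an Ensembl transcriptome with Tophat, combined lanes, flagged PCR duplicates and ran featureCounts. The deposited table holds raw counts, by Entrez gene, with no normalization. Duplicates were flagged and not removed, and their share was not examined. The annotation and strand option used for counting are not given in the sources used here. Library totals were 17943024 to 39839737 counts. The most alike libraries within a group still differed (chi-square 5.37 averaged over genes), so none was treated as a duplicate. The methods state fewer hearts per group than are labelled, and all 8 libraries entered the fits.

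Symbols came from RefSeq genes of GRCm38.p6 for 25275 of 27179 genes. Tests used edgeR 4.0.16 in R 4.3.3 with filterByExpr (minimum count 10), TMM factors and the quasi-likelihood test (glmQLFit, glmQLFTest), with exposure as the only term. Benjamini-Hochberg adjustment covered 14966 genes, and calls needed an adjusted p up to 0.05 with a 1.25-fold difference. The standard error is the log2 fold change over the root of F. Exon length is the union of GENCODE basic exons on GRCm38. Code was tested on simulated data. Settings tried besides were DESeq2 1.42.0, the likelihood ratio test of edgeR, limma-voom (limma 3.58.1), other scaling and filters, the number in the sample name, length offsets, the adjusted p alone, and leaving out each library.

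The genes described, the wider list, the marker lists, the motifs and the tests were chosen with earlier results of these data known. A further gene of the pathway is not reported here and was left out of the wider list. The text names the 9 genes, the called genes of the wider list, the gene with the highest CPM in each of its 4 roles, and the 5 genes most like Pygl. Gys2, the other phosphorylase kinase subunits and the other Ppp1r3 targeting subunits are named besides, chosen after their values were seen. The cardiomyocyte sum without Myh6 was also added after the data were seen.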

Additional observations from a re-analysis of the deposited data

Results flagged for a closer look

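In 28 groups of 4 libraries (14 named genes, 2 exposures), 3 held a library far from the others by Dixon's test, which chance gives in about 1 group of 20. Ugp2 was at 318.3 CPM in FA replicate 6 against 303.4 to 305.8 CPM in the other FA libraries. It was at 339.5 CPM in DE replicate 5 against 311.5 to 315.8 CPM in the other DE libraries. Pgm1 was at 203.1 CPM in DE replicate 1 against 255.1 to 264.3 CPM in the others.

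Ppp1r3c differed between DE libraries by the number in the sample name, by 0.91 on the log2 scale (higher with the number 12 in 2 of 2 libraries, edgeR QL adjusted p = 0.0339, fitted with the number as a term).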

How the results depend on the processing

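No paired analysis was possible because FA and DE share only 1 replicate number, 3. Among all tested genes 868 were called, against 1620 with DESeq2, 1603 with the likelihood ratio test, 1513 with length offsets, 448 with the number in the sample name as a term, 260 in libraries with the number 11 only, and 237 to 1168 when single libraries were left out. Library totals alone gave 803 higher and 217 lower, against 536 and 332. Of the 9 genes, 0 were called, and 1 (Pygl) with DESeq2, the likelihood ratio test, relative log expression factors, library totals alone, a mean of at least 1 CPM or length offsets. Over all tested genes, relative log expression factors called 861 and a mean of at least 1 CPM called 842. Without single libraries the count was 0 to 1, being Pygl without DE replicate 1 and Phka1 without DE replicate 7. Of the wider list 1 gene was called, and 2 with library totals alone (Stbd1 and Pgm1). Without single libraries it was 1 to 2, adding Pgm1 without DE replicate 1 and Ppp1r3d without DE replicate 7 (chosen for mention after its values were seen).

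Signs turned in genes that no setting of these called. Ppp1r3c was at -0.23 with the number as a term and in libraries with the number 11 only, and at -0.25 with length offsets and the number together. Pygm was at 0.022 with library totals alone and ran from -0.11 to 0.013 without single libraries. Gaa was at -0.035 with the number as a term, -0.040 with the number 11 only, -0.064 with length offsets and the number together, and ran from -0.013 to 0.073 without single libraries. Ppp1cb was at 0.00068 with the number as a term. Gsk3b was at 0.056 with the number as a term, 0.052 with the number 11 only, 0.052 with length offsets and 0.043 with both. The cause of these shifts was not tested. The 2 settings with length offsets were chosen after the data were seen.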

Other observations

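Phosphorylase kinase is a complex of a catalytic subunit and regulatory subunits. Per kb of exon, the liver alpha subunit Phka2 was at 12.1 ± 0.33 CPM in FA and 11.3 ± 0.79 in DE, the beta subunit Phkb at 9.87 ± 1.18 and 8.43 ± 1.04, the muscle alpha subunit Phka1 at 8.36 ± 0.62 and 6.65 ± 1.01, the gamma subunit Phkg2 at 5.02 ± 0.54 and 5.69 ± 0.56, and the gamma subunit Phkg1 at 0.61 ± 0.094 and 0.69 ± 0.14 (SD, n = 4 each). Phka2 was above Phka1 in all 8 libraries, and Phka1 held 40.9% ± 1.56 of the alpha subunit level in FA and 37.0% ± 3.803 in DE, ranges that overlapped.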
